A study of Mus musculus with 12 samples.

Results

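Imprinted growth genes are genes read from only the maternal or only the paternal chromosome copy, many of which set the size of the fetus and newborn. The set described here holds 10 of them, H19, Igf2, Igf2r, Meg3, Dlk1, Peg3, Plagl1, Mest, Ndn and Grb10, listed by symbol out of 53090 genes in the deposited tables, and each symbol was found in every library. Paternally read members include Igf2, Dlk1, Peg3, Plagl1, Mest and Ndn. Set against them are members read from the maternal copy in most tissues, such as H19, Igf2r, Meg3 and, outside the brain, Grb10. In many tissues several of these genes are high before birth and are turned down together as postnatal growth slows. The insulin-like growth factor pathway runs through the set: IGF2 is a ligand, the protein of Igf2r removes it from the cell surface, and GRB10 binds the activated receptors for insulin and IGF1 and dampens their signal.

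The study compared mural cells, the pericytes and smooth muscle cells that wrap vessels, at 2 ages of postnatal blood vessel growth in the mouse retina. There were 6 libraries at postnatal day 3 (P3) and 6 at postnatal day 9 (P9), all from C57BL/6 mice that received tamoxifen on days 1 and 2, and all from RNA pulled down with ribosomes through an HA tag and labelled as retinal pericytes. The sources used here do not name the transgenes that place the tag or the cells they reach, nor say whether a library is 1 animal or a pool. The interval since tamoxifen grew with age, so interval and age cannot be told apart. Separate animals are not stated for the replicates, and errors and p-values therefore cover only how these libraries vary, which may be technical variation.

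Library totals lay between 26839599 and 37776172 expected counts, so that 1 CPM (a count scaled to a common library size, with TMM factors to correct for library composition) stood for 25.8 to 38.5 counts. All 12 pericyte markers were present, with marker sums of 367 to 1373 CPM at P3 and 2880 to 6481 CPM at P9. By the fit over all genes 11 of them were higher at P9, where 26.1% of all tested genes were. By the same fit all 10 rod, all 6 bipolar and all 5 tested smooth muscle markers were higher. Of 11 retinal progenitor markers 10 were lower, as were all 10 tested lens markers. Transcripts of other cells were present too: rod markers summed to 767 to 2061 CPM at P3 and 6547 to 14768 CPM at P9, retinal progenitor markers to 3052 to 7607 CPM and 1072 to 1376 CPM, and lens markers to 3728 to 10461 CPM and 43.5 to 1183 CPM. The lens sum of 1183 CPM was that of P9 replicate 2, and the other P9 libraries held 43.5 to 272 CPM. The erythroid marker sum of that library was 1586 CPM, against 160 to 588 CPM in the other P9 libraries. Whether these sums have a part in the differences by age given below was not tested. In such bulk samples, fewer cells of a type and less RNA per cell cannot be told apart.

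Of the 10 imprinted growth genes, 4 were lower in every P9 library than in every P3 library (H19, Plagl1, Grb10 and Peg3) and 1 was higher in every P9 library (Mest). Over all 18638 genes tested, 15.4% were lower without overlap 16.3% were higher without overlap, and 31.7% did not overlap in either direction. In the fit over all genes, 5 members were called lower and 3 higher, where 25.6% and 26.1% of all tested genes were, and 51.8% were called in either direction. The members were listed with such results in view, so nothing is read from these counts. Their median log2 fold change was -0.26, beside 0.00 (to 2 decimals) for all tested genes. The members' own values are given below as a description, with no test.

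**Figure D1:**
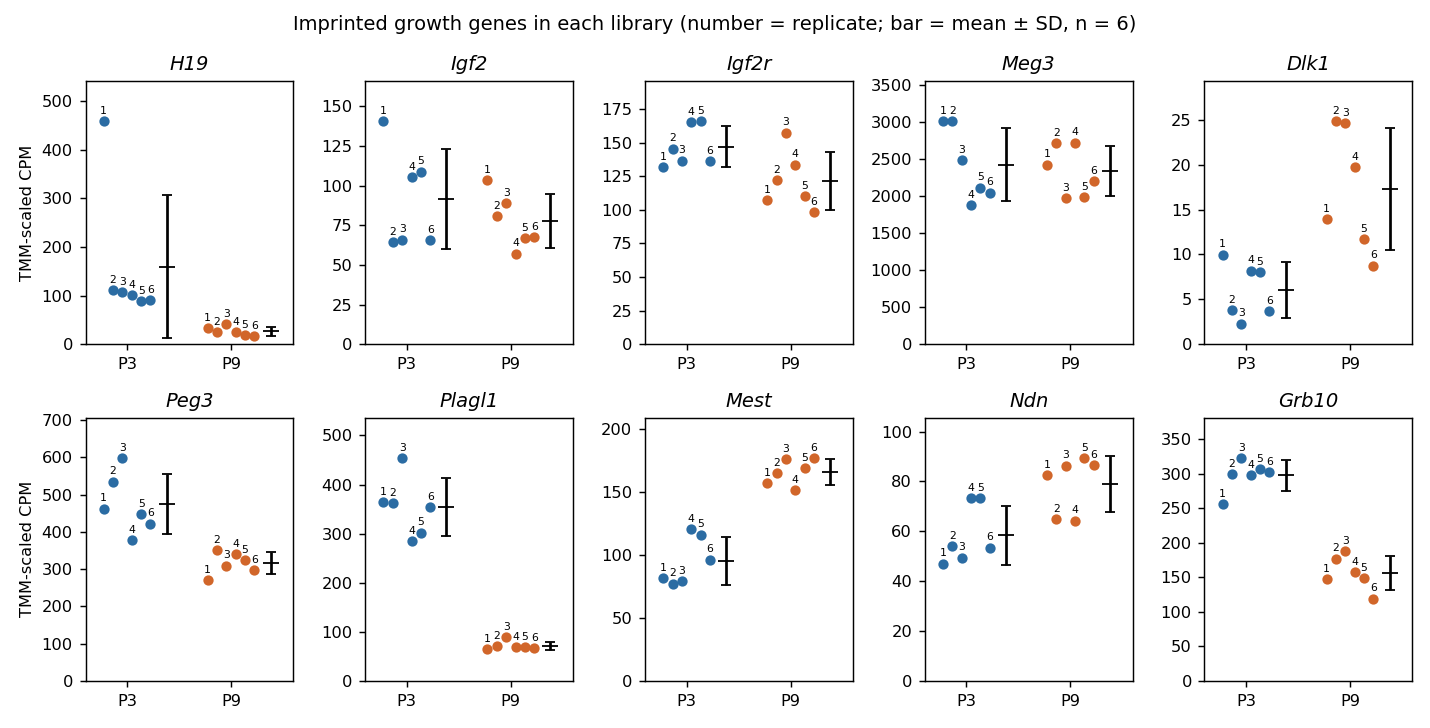
TMM-scaled CPM of the 10 imprinted growth genes (vertical axes, each from 0) in the 6 P3 and 6 P9 libraries, with points numbered by replicate and black bars for the mean ± SD. H19 in P3 replicate 1 stands at 458 CPM against 88.3 to 111 CPM in the other P3 libraries, and the ages do not overlap for H19, Peg3, Plagl1, Mest and Grb10.

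Plagl1 (ENSMUSG00000019817.18, chromosome 10, 13090832 to 13131694 in GRCm38.p6) encodes a zinc finger transcription factor that restrains proliferation and sits high in a network of imprinted genes. Its level at P3 ran from 285 CPM at the lowest through a median of 358 to 454 CPM at the highest, and at P9 from 65.5 through 68.7 to 88.5 CPM. No P9 library came near the P3 range, and the P9 libraries other than replicate 3 lay within 65.5 to 71.0 CPM. The means were 354 ± 59.5 and 71.6 ± 8.49 CPM (SD, n = 6 each), a log2 fold change of -2.30 ± 0.12 (SE), or 4.94-fold lower at P9. Among the members this was the second largest difference after H19, and the larger one once P3 replicate 1, discussed with H19, was left out.

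Grb10 (ENSMUSG00000020176.17, chromosome 11, 11930499 to 12037428), the adaptor that dampens insulin and IGF1 receptor signals, was lower at P9. P3 libraries spanned 257, 301 and 323 CPM (lowest, median, highest) and P9 libraries 119, 153 and 188 CPM. The lowest P3 value, in replicate 1, was still above the highest P9 value, in replicate 3. The means were 298 ± 22.1 and 156 ± 24.3 CPM (SD, n = 6 each), and the log2 fold change was -0.93 ± 0.10 (SE).

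Mest (ENSMUSG00000051855.15, chromosome 6, 30733506 to 30748466) encodes an enzyme-like protein of the endoplasmic reticulum that is abundant in fetal mesoderm. Its P3 libraries held 77.1, 88.8 and 120 CPM (lowest, median, highest) and its P9 libraries 151, 167 and 177 CPM. It was the member whose P9 libraries all lay above the P3 libraries, against the direction of Plagl1 and Grb10. The means were 95.0 ± 19.2 and 166 ± 10.2 CPM (SD, n = 6 each), with a log2 fold change of 0.80 ± 0.11 (SE), or 1.74-fold higher.

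The 250 bases before an annotated start of Plagl1, Grb10 and Mest, the members with the clearest separation by age and a window in the RefSeq promoter table (GRCm38.p6), are shown on the strand of each gene. They lie at chr10:13090582-13090831 (plus strand), chr11:12037421-12037670 (minus strand) and chr6:30737800-30738049 (plus strand), and where a gene had several starts the window with the most CG pairs was taken. Capitals mark the GC box GGGCGG or its reverse complement CCGCCC, the letters that SP family factors recognise, and neighbouring matches may overlap.
Plagl1: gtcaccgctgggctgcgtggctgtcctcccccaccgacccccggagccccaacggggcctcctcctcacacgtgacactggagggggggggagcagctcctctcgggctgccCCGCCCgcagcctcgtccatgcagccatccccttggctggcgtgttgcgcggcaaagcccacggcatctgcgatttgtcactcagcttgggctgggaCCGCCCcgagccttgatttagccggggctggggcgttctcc
Grb10: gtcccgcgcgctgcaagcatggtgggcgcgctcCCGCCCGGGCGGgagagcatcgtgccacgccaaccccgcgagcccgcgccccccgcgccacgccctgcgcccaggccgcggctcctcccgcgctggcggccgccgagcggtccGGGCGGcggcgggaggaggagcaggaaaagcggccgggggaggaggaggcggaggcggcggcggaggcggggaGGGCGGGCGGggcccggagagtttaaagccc
Mest: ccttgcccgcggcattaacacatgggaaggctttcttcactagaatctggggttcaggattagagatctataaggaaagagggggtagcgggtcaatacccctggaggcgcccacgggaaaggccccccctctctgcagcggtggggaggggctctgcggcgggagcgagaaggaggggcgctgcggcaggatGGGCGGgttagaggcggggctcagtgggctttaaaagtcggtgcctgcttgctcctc
The Grb10 window held 5 GC boxes and 40 CG pairs, the Plagl1 window 2 and 19, and the Mest window 1 and 14. Of 32851 such windows in the table, 32.7% held at least 1 GC box, 16.7% at least 2 and 1.93% at least 5, and the median window had 6 CG pairs. Of the members, 9 had a window in the table, and 8 of their 16 windows held a GC box. These 8 windows belonged to 5 members. For Grb10 and Mest the window with the most CG pairs was shown, a choice that can raise their counts beside those of all windows. A match is a description of these letters, and methylation or binding there was not measured. The motif was thus present in the window of Mest, which was higher at P9, and in those of Plagl1 and Grb10, which were lower, and the window of Peg3 held none.

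Peg3 (ENSMUSG00000002265.16, chromosome 7, 6703892 to 6730462), a large zinc finger protein that acts in growth and maternal behaviour, also separated by age. It stood at 378, 456 and 599 CPM at P3 (lowest, median, highest) and at 270, 318 and 351 CPM at P9. The P3 libraries were spread far more widely than the P9 libraries, with P3 replicate 4 lowest and P3 replicate 3 highest. The means were 474 ± 80.1 and 316 ± 29.7 CPM (SD, n = 6 each), a log2 fold change of -0.59 ± 0.11 (SE).

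H19 (ENSMUSG00000000031.15, chromosome 7, 142575530 to 142578146) is a long noncoding RNA, made from the maternal chromosome beside Igf2, and the host of miR-675. It encodes no known protein, and without a library of RNA before the pulldown its reads do not show that it was bound to ribosomes. P3 replicate 1 held 458 CPM, and the other 5 P3 libraries held 88.3 to 111 CPM with a mean of 99.6 ± 10.03 CPM (SD). P9 libraries held 16.5, 25.1 and 42.1 CPM (lowest, median, highest). No P9 library reached the P3 range, with or without P3 replicate 1. The log2 fold change was -2.56 ± 0.42 (SE), or 5.91-fold lower at P9, with P3 replicate 1, and -1.88 ± 0.20 (SE), or 3.69-fold lower, without it.

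The mature arms that H19 hosts are shown with the seed, bases 2 to 8, in capitals, because the seeds of the arms differ from each other and from that of the miRNA hosted by Mest. The H19 arms lie on the minus strand of chromosome 7 and miR-335-5p on the plus strand of chromosome 6, from the RefSeq table on GRCm38.p6.
miR-675-5p: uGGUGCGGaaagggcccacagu
miR-675-3p: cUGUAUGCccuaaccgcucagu
miR-335-5p: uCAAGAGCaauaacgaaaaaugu
None of these short RNAs was measured by these libraries, which counted reads per gene. The hosts went opposite ways, H19 lower and Mest higher at P9.

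Igf2 (ENSMUSG00000048583.16, chromosome 7, 142650768 to 142666816), the fetal growth factor whose gene lies beside H19, did not separate by age. It stood at 64.3, 85.5 and 141 CPM at P3 (lowest, median, highest) and at 57.1, 74.1 and 104 CPM at P9. P3 replicate 1 was again the highest, at 2.13 times the median of the other P3 libraries, followed by P3 replicates 5 and 4. The means were 91.7 ± 31.5 and 77.4 ± 17.1 CPM (SD, n = 6 each), with a log2 fold change of -0.24 ± 0.20 (SE) with P3 replicate 1 and -0.08 ± 0.18 without it.

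Igf2r (ENSMUSG00000023830.13, chromosome 17, 12682406 to 12769706), the receptor that carries IGF2 to lysosomes, overlapped between ages. P3 libraries held 132, 141 and 166 CPM (lowest, median, highest) and P9 libraries 98.2, 116 and 157 CPM. P9 replicates 3 and 4 lay within the P3 range. The log2 fold change was -0.27 ± 0.11 (SE), from 147 ± 15.2 to 121 ± 21.5 CPM (SD, n = 6 each). With the mesenchyme marker mean as a covariate, the value was -0.33 ± 0.14 for Igf2r and -0.53 ± 0.19 for Igf2. The mesenchyme marker sum itself differed by age, with a median of 236 CPM at P3 and 463 CPM at P9. Age and this covariate can therefore not be fully told apart. The value for Igf2r was -0.18 ± 0.12 without P3 replicates 4 and 5 and -0.17 ± 0.11 without P9 replicates 5 and 6.

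Meg3 (ENSMUSG00000021268.17, chromosome 12, 109540996 to 109571729) is a maternally read long noncoding RNA with high levels in neurons. It held 1880, 2302 and 3011 CPM at P3 (lowest, median, highest) and 1976, 2314 and 2723 CPM at P9. The ages overlapped over nearly the whole range. The log2 fold change was -0.05 ± 0.13 (SE), and its sign turned to 0.02 ± 0.13 without P3 replicate 1 and to 0.02 without P3 replicate 2 or without P9 replicates 5 and 6, so it has no settled direction.

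Dlk1 (ENSMUSG00000040856.17, chromosome 12, 109452485 to 109463336), a paternally read gene of a membrane protein of the Notch ligand type, lies next to Meg3 and did not share its pattern. It was low, at 2.29, 5.91 and 9.98 CPM at P3 (lowest, median, highest) and 8.76, 16.8 and 24.9 CPM at P9, and its lowest value rested on 59 counts. The P3 libraries split, with replicates 1, 4 and 5 at 8.01 to 9.98 CPM and the others at 2.29 to 3.82 CPM. Only P9 replicate 6 lay below the highest P3 library. The log2 fold change was 1.52 ± 0.35 (SE), from 5.99 ± 3.12 to 17.3 ± 6.81 CPM (SD, n = 6 each). With the mean of the mesenchyme markers as a covariate it was 0.89 ± 0.35 (SE), a fold of 1.85 in place of 2.87. The mesenchyme marker sum differed by age too, so age and covariate cannot be fully told apart in this fit.

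Ndn (ENSMUSG00000033585.5, chromosome 7, 62348277 to 62349928), which encodes necdin, a protein that restrains the cell cycle in postmitotic neurons, was higher at P9 with overlap. It held 47.0, 53.7 and 73.4 CPM at P3 (lowest, median, highest) and 64.3, 84.5 and 89.4 CPM at P9. P3 replicates 4 and 5 were the libraries that reached the P9 range. The log2 fold change was 0.43 ± 0.13 (SE), from 58.4 ± 11.9 to 79.0 ± 11.4 CPM (SD, n = 6 each), and 0.64 ± 0.11 without P3 replicates 4 and 5. As these held the highest P3 values, a larger difference without them follows from the choice.

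Transcript lengths were not used here, so levels are not ranked between genes.

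**Figure D2:**
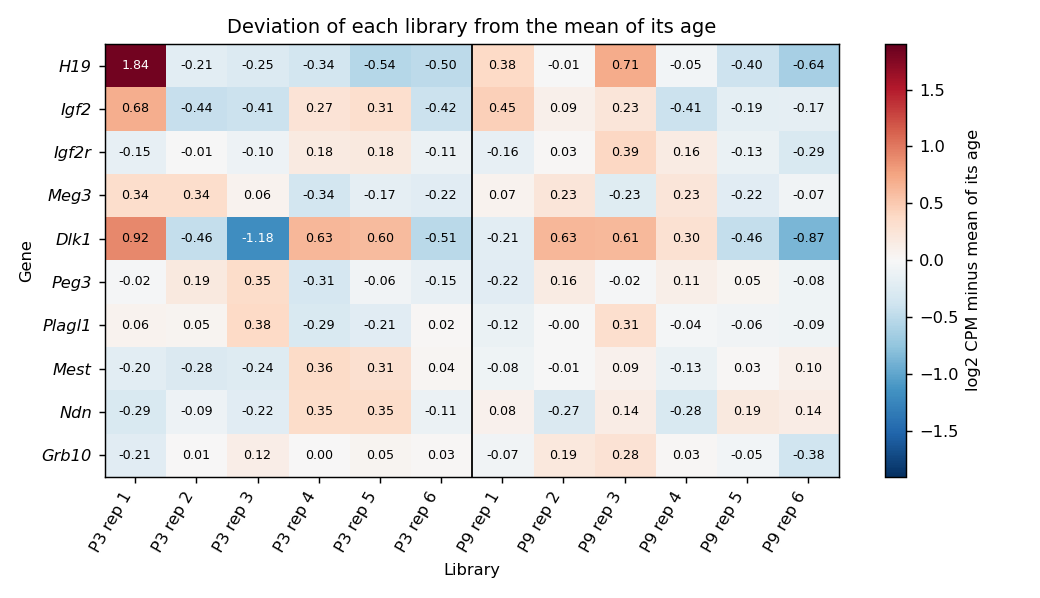
Heat map of each imprinted growth gene (vertical axis) in each library (horizontal axis, P3 left of the line and P9 right of it), coloured by log2 CPM minus the mean of that age. H19 in P3 replicate 1 is 1.84 above its mean, Dlk1 in P3 replicate 3 is at -1.18, and P3 replicates 4 and 5 share raised Mest and Ndn with lowered Plagl1.

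P3 replicate 1 stood apart for H19, which was high, and for Grb10, which was low, at 257 CPM against 298 to 323 CPM. It also held the highest P3 values of Igf2 and of Dlk1, the latter close to replicates 4 and 5. The same library held the highest P3 value of all 13 skeletal muscle markers, whose sum was 769 CPM against 29.1 to 73.0 CPM in the other P3 libraries and 23.4 to 28.3 CPM at P9. Myh8, a perinatal myosin heavy chain, was at 196 CPM there and at most 11.2 CPM in any other P3 library, and Acta1, skeletal muscle actin, was at 148 CPM against at most 5.16 CPM. Of 14 mesenchyme markers, 11 were highest of the P3 libraries in replicate 1, with a sum of 703 CPM against 163 to 274 CPM, while P9 libraries held 358 to 596 CPM. It was highest for 8 of 10 endothelial markers, although their sum of 873 CPM was the lowest at P3, and for 6 of 7 erythroid markers, with a sum of 88.2 CPM against 18.8 to 53.3 CPM. None of the muscle or mesenchyme markers was at 0 in all libraries of an age. Whether RNA of these other cells has a part in the H19 value was not tested. The age difference of H19 without this library is as given above, and with the mesenchyme marker mean as a covariate it was -3.08 ± 0.24 (SE). As the mesenchyme sum also differed by age, that fit cannot fully tell age and covariate apart.

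P3 replicates 4 and 5 formed a pair in the members. They held the highest P3 values of Mest (120 and 116 CPM), of Ndn (both 73.4 CPM) and of Igf2r (166 CPM each), and the lowest of Plagl1 (285 and 302 CPM). These libraries also had the highest P3 pericyte sums (1233 and 1373 CPM) and rod sums (2061 and 1811 CPM) and the lowest progenitor sums (3052 and 3057 CPM). Each of those members was thus nearer its P9 level in these libraries, Igf2r excepted. Without the pair the log2 fold change was -2.42 ± 0.10 for Plagl1 and 0.99 ± 0.08 for Mest, farther from 0 than with it. For Igf2r it was -0.27 with the pair and -0.18 ± 0.12 without it. The pair held the extreme P3 values of these genes, so the direction of each shift follows from that choice. A part of the marker sums in these values was not tested.

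P9 replicate 3 held the highest P9 value of Plagl1 (88.5 CPM), H19 (42.1 CPM), Igf2r (157 CPM) and Grb10 (188 CPM). All of these were lower at P9 than at P3 on average. Other members did not go the same way in this library. Peg3, also lower at P9, was at 310 CPM, below the median of 325 CPM of the other P9 libraries. Mest (176 CPM) and Dlk1 (24.6 CPM), both higher at P9, were near their highest P9 values of 177 and 24.9 CPM. The smooth muscle marker sum of this library, 410 CPM, was the highest of its age. Its progenitor sum was 1376 CPM against 1072 to 1124 CPM in the other P9 libraries, and its rod sum of 6547 CPM was the lowest of its age. Without it the log2 fold change was -2.37 for Plagl1, -2.73 for H19, -0.36 for Igf2r and -0.99 for Grb10. As the highest P9 value of each was left out, larger differences follow from the choice.

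**Figure D3:**
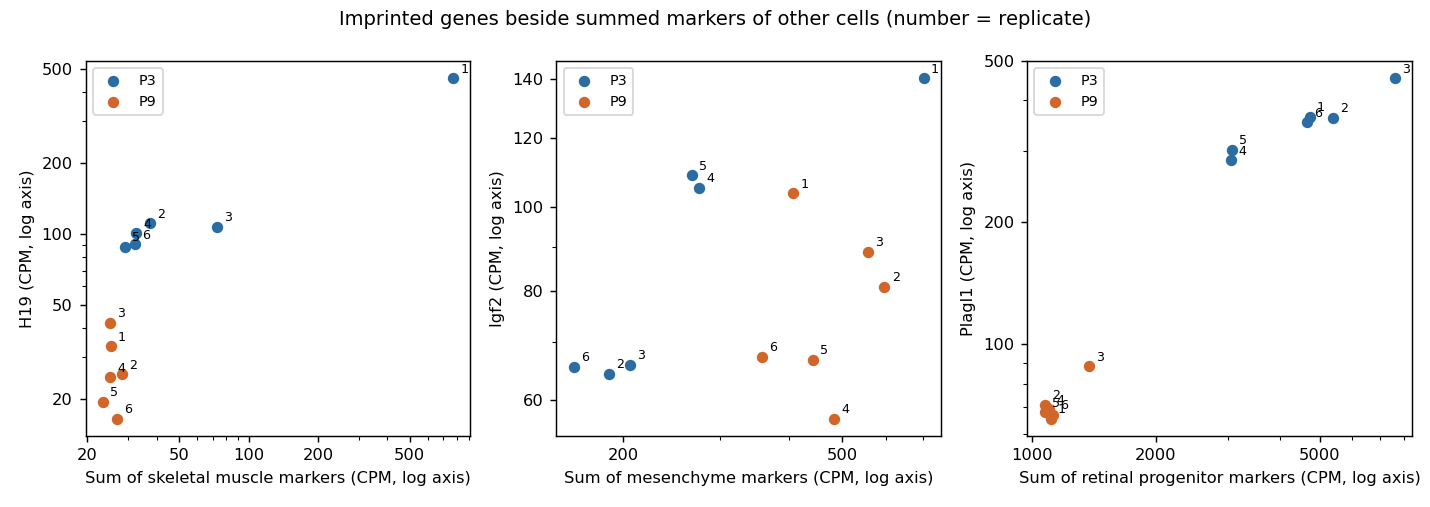
H19 against the skeletal muscle marker sum, Igf2 against the mesenchyme sum and Plagl1 against the retinal progenitor sum, in CPM on log axes, with 1 point for each of 12 libraries, coloured by age and numbered by replicate. P3 replicate 1 lies alone at 769 CPM of muscle markers, and Plagl1 is lowest at P3 in the replicates with the lowest progenitor sums (4 and 5), while P9 replicate 3 is highest on both axes at P9.

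Correlations over the 12 libraries were taken on log2 CPM after the mean of each age was removed, as a description; the libraries share composition and scaling, and those given were picked after their values were seen, from 45 pairs of members, 170 pairs with marker sums and 43 with imprinted neighbours. Plagl1 went with the progenitor sum (r = 0.92, rho = 0.88, and r = 0.91 without the 2 farthest libraries) and against the rod sum (r = -0.88, rho = -0.90, r = -0.85). H19 had r = 0.86 with the muscle sum but rho = 0.55, and r = 0.42 without the 2 farthest libraries, so that relation rests on them. With the mesenchyme sum, H19 had r = 0.84, rho = 0.61 and r = 0.31, which likewise rests on them. With that sum Igf2 had r = 0.73, rho = 0.64 and r = 0.72, and Dlk1 r = 0.76, rho = 0.90 and r = 0.79. With the smooth muscle sum Igf2r had r = 0.78, rho = 0.75 and r = 0.83, and Dlk1 r = 0.77, rho = 0.77 and r = 0.66. H19 and Igf2, which share an enhancer region, had r = 0.65 and rho = 0.35, with r = 0.64 within P3 and 0.69 within P9. Their relation was weaker without the 2 farthest libraries, at r = 0.31. Igf2r and Grb10 had r = 0.74 and rho = 0.76, with r = 0.40 without the 2 farthest libraries. Dlk1 and Igf2 had r = 0.70, rho = 0.67 and r = 0.76, with r = 0.93 within P3 and 0.23 within P9. Mest and Ndn went together (r = 0.81, rho = 0.75, r = 0.61), and Meg3 went against both (r = -0.81 with Mest and -0.79 with Ndn).

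The 2 genes most like each member in the same measure were picked from 11736 tested genes of at least 5 CPM. Peg3 was most like Frmd4a (r = 0.99, rho = 0.99), Dlk1 like Rasgrp3 (r = 0.97, rho = 0.94) and Lgals1, and Ndn like Fzd10 and Fam222a (r = 0.97 each). Mest was most like Slc25a5 and Fam192a, Plagl1 like Nras and Casp2, Grb10 like Vim and Rbfox2, and Meg3 like Rab36 and Slc4a3. Igf2r was most like Src and Ccdc8, and Igf2 like Ostf1 and Pdlim3. H19 was most like S100a6 (r = 0.93, rho = 0.73) and Mal, with r = 0.68 and 0.66 without P3 replicate 1 and P9 replicate 3. As the highest of many candidates, these values carry no test.

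Genes listed as lying in the same imprinted chromosome regions as the members are given next. Beside them stand the shares over all tested genes, of which 26.1% were called higher, 25.6% lower and 51.8% either way. Which chromosome copy each listed gene is read from in these cells was not measured. Of 39 listed neighbours 29 were tested, and 6 rose, 7 fell and 16 did not pass, with a median log2 fold change of 0.02; the called share is no larger than that of all genes. In the listed region that holds H19 and Igf2 and reaches past Kcnq1, Cdkn1c, the inhibitor of cyclin-dependent kinases, fell from 49.9 ± 6.48 to 32.8 ± 8.36 CPM (SD, n = 6 each; log2 fold change -0.60 ± 0.14, edgeR adjusted p = 0.00223), and Nap1l4, a histone chaperone, fell (log2 fold change -0.57 ± 0.08, edgeR adjusted p = 2.06e-05). Kcnq1ot1, a noncoding RNA of the Kcnq1 part of that region, also fell (-0.46 ± 0.11), as did Trpm5 (-1.49 ± 0.45), while Cd81 rose (0.63 ± 0.09). Trpm5 was low, at 1.24 ± 0.53 CPM at P3 and 0.44 ± 0.28 CPM at P9, and its fall did not pass without P9 replicates 5 and 6.

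In the region of Dlk1 and Meg3, Begain, a gene of neuronal synapses, rose from 61.3 ± 11.5 to 105 ± 13.8 CPM (SD, n = 6 each; log2 fold change 0.77 ± 0.12, edgeR adjusted p = 0.000116). Rian, the noncoding RNA downstream of Meg3, stood at 342 ± 55.7 and 326 ± 30.3 CPM and did not pass (adjusted p = 0.633), as Meg3 itself had a difference near 0. Meg3 and Rian had r = 0.81 over libraries (rho = 0.85, r = 0.70 without the 2 farthest), and Meg3 and Begain r = 0.89 (rho = 0.86, r = 0.84). Mirg, farther along, was at -0.26 ± 0.11 (adjusted p = 0.0665) and passed without P3 replicate 5, without P9 replicate 4 or without P3 replicates 4 and 5.

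In the region of Ndn, the neighbours split. Snrpn, a splicing protein, rose from 57.5 ± 10.1 to 105 ± 12.6 CPM (SD, n = 6 each; log2 fold change 0.86 ± 0.12, edgeR adjusted p = 2.27e-05), and Snurf, made from the same transcript, rose too (1.03 ± 0.15). Ube3a, a ubiquitin ligase, rose by 0.40 ± 0.11. Magel2, a close relative of Ndn, fell from 12.8 ± 2.50 to 6.85 ± 1.21 CPM (log2 fold change -0.90 ± 0.16, edgeR adjusted p = 0.000229), and Peg12 fell (-1.33 ± 0.24). Ndn and Magel2 went opposite ways within ages as well, with r = -0.83, rho = -0.79 and r = -0.78 without the 2 farthest libraries.

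Beside Peg3, Usp29 rose (0.48 ± 0.11) where Peg3 was lower. Zim1 was called lower (-0.63 ± 0.25, edgeR adjusted p = 0.0483), and the call did not hold when any of P3 replicates 1, 3 and 5 or P9 replicates 1, 2, 3, 5 and 6 was left out. Airn, the noncoding RNA that runs through Igf2r on the other strand, was at 2.48 ± 0.69 and 3.73 ± 0.97 CPM (SD, n = 6 each) and did not pass (adjusted p = 0.0505). It passed by DESeq2 and limma-voom, and when replicate 4 or 5 of either age was left out. Copg2, which overlaps Mest, did not pass (0.17 ± 0.07, adjusted p = 0.0622). The library kit keeps strand, but the sources used here do not say whether counting used it, so overlapping partners such as these cannot be separated with certainty.

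**Figure D4:**
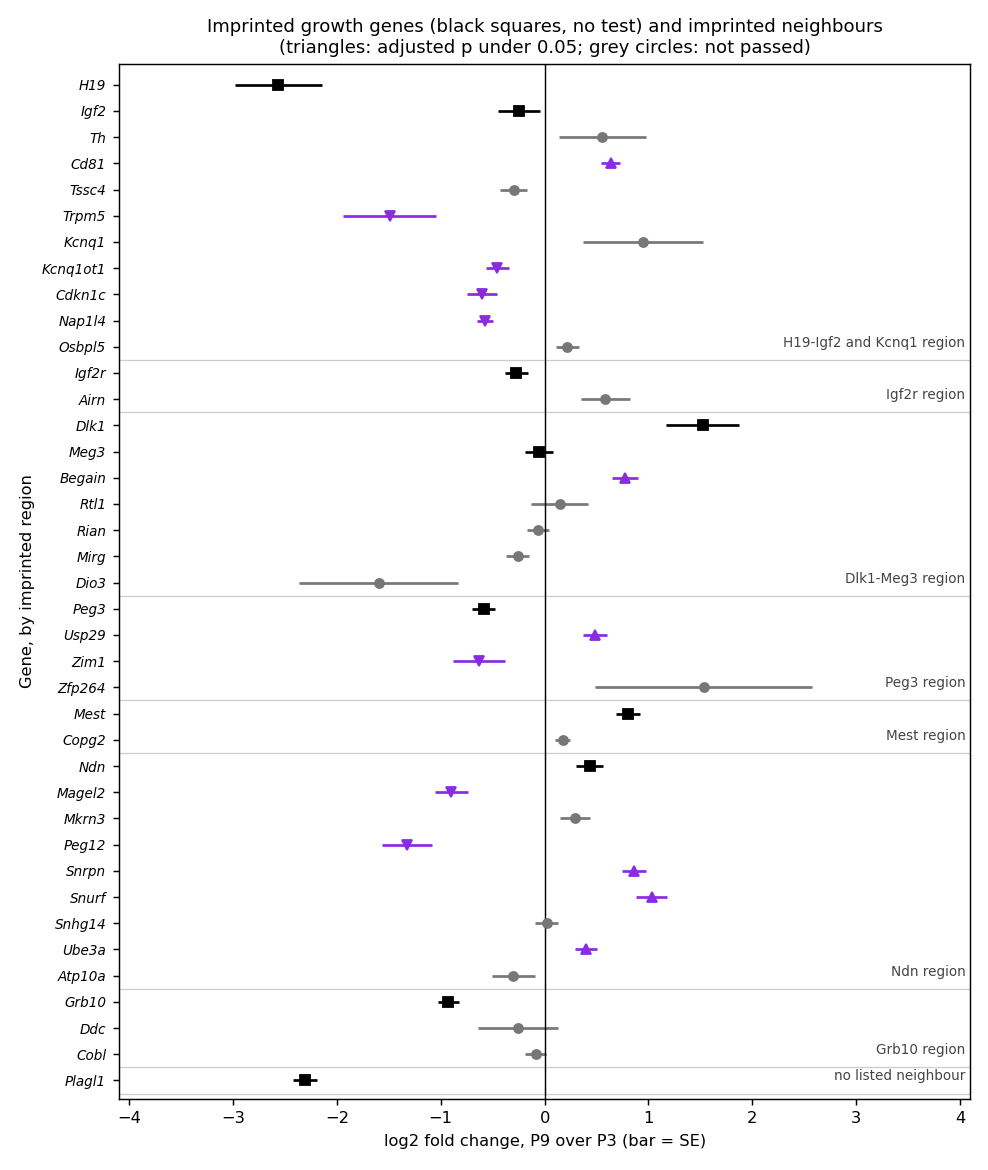
log2 fold change of P9 over P3 (horizontal axis, bars for SE), ordered by region. Black squares are the imprinted growth genes. The tested genes listed as their imprinted neighbours are triangles (adjusted p under 0.05) or grey circles (not passed). Genes of 1 region lie on both sides of 0, as with Ndn at 0.43, Snrpn at 0.86 and Magel2 at -0.90.

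Of 28 genes listed as imprinted elsewhere in the genome, 26 were tested: 10 rose, 4 fell and 12 did not pass. Their median log2 fold change was 0.11. Over all tested genes 51.8% were called, a like share. Here too the chromosome copy that is read was not measured. Nnat, a small membrane protein of developing neurons, fell from 624 ± 42.4 to 249 ± 59.6 CPM (SD, n = 6 each; log2 fold change -1.33 ± 0.13, edgeR adjusted p = 1.10e-06). Gnas, the stimulatory G protein subunit, rose from 363 ± 62.6 to 577 ± 46.9 CPM (0.67 ± 0.11, edgeR adjusted p = 0.000119), and Nap1l5 rose from 9.64 ± 2.45 to 35.7 ± 7.03 CPM (1.88 ± 0.18). Peg13 (0.89 ± 0.15) and Trappc9 (0.81 ± 0.13), which overlap, rose, as did Rasgrf1 (1.27 ± 0.22), Commd1 (0.76 ± 0.14), Zrsr1 (1.22 ± 0.15), Impact (0.30 ± 0.09) and Ampd3 (0.86 ± 0.22). Ppp1r9a fell (-0.45 ± 0.10). Asb4 fell too (-3.18 ± 0.39), but from 1.61 ± 0.14 to 0.17 ± 0.08 CPM (SD, n = 6 each), so its fold rests on very low levels. Slc38a4, an amino acid transporter, fell (-1.12 ± 0.36), which did not pass without P3 replicates 4 and 5 or without P9 replicates 5 and 6. Mcts2 rose (0.43 ± 0.16, edgeR adjusted p = 0.0331), which did not pass when any of P3 replicates 1, 2 and 4 or P9 replicates 1 and 2 was left out.

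Of 17 listed partners of Igf2, Igf2r and Grb10 in IGF signalling 15 were tested, with 4 higher, 6 lower and 5 not passed, and a median of -0.20, beside 26.1% higher and 25.6% lower over all tested genes. The RNA-binding proteins that attach to Igf2 messages fell: Igf2bp1 from 60.1 ± 16.4 to 3.72 ± 1.39 CPM (SD, n = 6 each; log2 fold change -4.01 ± 0.25, edgeR adjusted p = 2.70e-08), Igf2bp3 (-2.03 ± 0.17) and Igf2bp2 (-1.97 ± 0.17). The ligand Igf1 rose from 11.5 ± 1.77 to 30.4 ± 6.62 CPM (1.40 ± 0.15, edgeR adjusted p = 3.20e-06), and the binding proteins Igfbp7 (2.03 ± 0.23) and Igfbp5 (0.65 ± 0.15) rose. The binding protein Igfbp2 fell (-1.14 ± 0.23), and Igfbp3 (0.42 ± 0.43) and Igfbp4 (0.10 ± 0.10) did not pass. Of the receptors for IGF1 and insulin, Igf1r fell (-0.50 ± 0.10) and Insr did not pass (-0.12 ± 0.08), while Irs1 fell (-0.88 ± 0.11).

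Among the genes that write, read and keep imprints, 13 of 16 were tested, and 1 rose, 9 fell and 3 did not pass, with a median of -0.32, beside 26.1% higher and 25.6% lower over all tested genes. Dnmt3a, a DNA methyltransferase that sets new marks, rose from 257 ± 24.2 to 450 ± 46.7 CPM (SD, n = 6 each; log2 fold change 0.81 ± 0.09, edgeR adjusted p = 2.81e-06). Uhrf1, which brings the maintenance methyltransferase to replicating DNA, fell from 126 ± 44.6 to 13.3 ± 4.96 CPM (-3.25 ± 0.28, edgeR adjusted p = 3.11e-07), and Dnmt3b (-1.57 ± 0.16) and Trim28 (-0.65 ± 0.07), the corepressor at methylated imprints, fell. Of the 11 progenitor markers, which include cell cycle genes, 10 fell over the same ages, and their part in these falls was not tested. DNA methylation and the parental origin of reads were not measured.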

How the data were processed

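Polysome RNA of 12 mouse retina libraries, 6 at P3 and 6 at P9, was sequenced with a stranded kit, per the labels' protocols. The authors deposited expected counts from RSEM, estimated reads for each gene that were not scaled to depth; 15.9% are not whole, and they were rounded. FastQC, Trim Galore, STAR, RSEM and limma with build mm10 were used, per the submitters' processing notes; the sources used here give neither versions and roles nor the strand setting.

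Age was tested with edgeR 4.0.16 (R 4.3.3; TMM, filterByExpr, quasi-likelihood, Benjamini-Hochberg, adjusted p threshold 0.05) on 18638 genes; 34452 were removed as too low. Each SE from edgeR was the size of the log2 fold change divided by the square root of its quasi-likelihood F statistic. The same steps were tested on simulated data. CPM values for correlations used a prior count of 2. Alternatives used DESeq2 1.42.0, limma 3.58.1 (voom), other scaling, other filters, a covariate and left-out libraries.

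The members, gene lists and marker lists were chosen with earlier results of these data known. Named genes are all 10 members, every called imprinted gene with at least 1 CPM in either age, the 3 called genes per direction with the smallest adjusted p in the IGF and imprint upkeep lists, and the 2 genes most like each member. Airn, Copg2, Mirg, Rian, Igfbp2, Igfbp3, Igfbp4, Igf1r, Insr, Irs1, Myh8 and Acta1 were added after their values were seen. Reads that fit several genes are shared out by RSEM's model, so values of overlapping or near-identical genes, such as Snrpn and Snurf, are uncertain. P9 replicates 5 and 6 carry names crossed between title and file, and both are P9. Gene positions come from RefSeq on GRCm38.p6, matched by symbol.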

Additional observations from a re-analysis of the deposited data

Results flagged for a closer look

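Each value here lies farther from the other 5 libraries of its age, on a log2 scale, than Dixon's criterion at 95% allows; 11 of 128 groups of 6 libraries did so, and chance alone gives about 1 in 20 where nothing was chosen beforehand. The genes and marker lists were chosen with the values of P3 replicate 1 known, so that rate does not test them. P3 replicate 1 held 5 of them: H19 at 458 CPM (others 88.3 to 111), Grb10 at 257 CPM (others 298 to 323), Nap1l4 at 135 CPM (others 168 to 181), the skeletal muscle marker sum at 769 CPM (others 29.1 to 73.0) and the mesenchyme marker sum at 703 CPM (others 163 to 274). P9 replicate 3 held Plagl1 at 88.5 CPM (others 65.5 to 71.0), Cdkn1c at 49.4 CPM (others 26.9 to 32.9), Trim28 at 374 CPM (others 321 to 334) and the retinal progenitor marker sum at 1376 CPM (others 1072 to 1124). Snurf was low in P9 replicate 4, at 12.7 CPM (others 18.2 to 22.5), and Ampd3 was low in P3 replicate 5, at 1.88 CPM (others 3.06 to 3.83). The causes were not tested.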

How the results depend on the processing

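No paired analysis was possible because replicates are numbered only in order of deposit, and no label pairs libraries across ages. The count of imprint upkeep genes higher at P9 went from 1 to 2 when P3 replicates 4 and 5 were left out, a choice made after seeing the data, and ranged from 1 to 2 when single libraries were left out, with 2 only without P3 replicate 5. All other counts of called genes stayed within 1.5 times under every alternative run; over all genes they ranged from 4515 to 5052 higher and from 4421 to 4747 lower with a library left out. Leaving out P3 replicates 4 and 5, or P9 replicates 5 and 6, was added after seeing the data. Scaling moved the median log2 fold change of all genes to -0.01 at most. The cause of these changes was not tested. Dlk1 had the fewest counts of the members, and H19 the widest SE of its fold change, followed by Dlk1.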
